A study of Homo sapiens with 4 samples.

Results

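The clustered protocadherins are 53 genes that lie side by side on the long arm of chromosome 5, in the alpha cluster (15 genes, PCDHA1 to PCDHA13, PCDHAC1 and PCDHAC2), the beta cluster (16 genes, PCDHB1 to PCDHB16) and the gamma cluster (22 genes, PCDHGA1 to PCDHGA12, PCDHGB1 to PCDHGB7 and PCDHGC3 to PCDHGC5). They were taken by symbol from 20163 protein-coding genes, with no measured value in the rule. The family was chosen with earlier results of these data known, and the study names protocadherins among the gene families enriched for H4K20me3 in senescence. All 53 were found, from the start of PCDHA1 at position 140165721 of chromosome 5 to the end of PCDHGC3 at 140892544 on hg19. The peaks around them were described over a span of 850 kb that holds the 3 clusters and their flanks. H4K20me3, histone H4 trimethylated at lysine 20, was profiled by ChIP-seq in IMR90, a line of primary human lung fibroblasts with a limited lifespan. PRO cells were proliferating at population doubling 32 and RS cells, from the same line, had reached replicative senescence at population doubling 86. Both states were grown in the same medium at low oxygen, and the labels name no introduced gene or drug in either. Each state was measured with 2 antibodies, and the deposited data hold 1 list of peaks per state, made of regions found with both, beside a list of regions that DiffBind called different between the states.

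Clustered protocadherins are adhesion proteins of the cell surface, best known in neurons, where each cell uses a small and partly random set of them and so acquires a surface identity. In the alpha and gamma clusters each gene has its own promoter and its own large first coding exon, the variable exon, which encodes the extracellular cadherin repeats and the membrane span, and this exon is spliced to small constant exons at the end of the cluster that all members share. The beta genes have a single large coding exon and no constant exons. The last genes of the alpha and gamma clusters, called C-type, differ from the others in sequence and in how they are regulated. Most promoters of the family hold a short conserved element around the letters CGCTG, near which the architectural protein CTCF binds. H4K20me3 is a mark of compact, silent chromatin and is laid down mainly by KMT5B and KMT5C.

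In what follows the variable exon of a member is its longest coding exon, 2328 to 2565 bp long, and the same rule was used for every other coding gene. A member is counted when this exon shares at least 1 base with a region. With 1 list per state there is no spread between samples and no value per antibody, so PRO and RS are compared here without an error or a p-value, and the lists hold no read depth. The lists differ greatly in size, with 2836 PRO peaks, 35535 RS peaks and 18711 DiffBind regions. For this reason the percentage of all coding genes reached by the same rule is given with the counts per list over the 53 genes. Counts with regions of repeated sequence dropped, and those of the closing section on processing, are given without it. The percentage of all coding genes is also the one to hold the counts by cluster against, where no region was dropped. The DiffBind list gives no direction of change.

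Sequences from the GRCh37 genome, which has the coordinates of hg19, are printed for promoters of members with and without peaks. Each of these windows ends before the variable exon begins. The windows below hold the recurrent promoter letters of each cluster, in capitals, with 16 bases on either side. They were chosen because the letters recur among members or because these members appear in the results.
PCDHA2, chr5:140174362-140174402, plus strand: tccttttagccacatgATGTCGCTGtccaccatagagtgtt
PCDHA3, chr5:140180575-140180615, plus strand: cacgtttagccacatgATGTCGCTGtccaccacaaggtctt
PCDHA8, chr5:140220711-140220751, plus strand: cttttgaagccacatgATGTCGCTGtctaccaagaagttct
PCDHB2, chr5:140474125-140474165, plus strand: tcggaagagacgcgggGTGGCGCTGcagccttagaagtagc
PCDHB11, chr5:140579099-140579139, plus strand: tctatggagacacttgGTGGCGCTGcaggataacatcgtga
PCDHB15, chr5:140624878-140624918, plus strand: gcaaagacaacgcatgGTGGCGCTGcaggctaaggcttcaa
PCDHGB4, chr5:140767182-140767221, plus strand: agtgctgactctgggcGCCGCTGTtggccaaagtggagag
PCDHGB5, chr5:140777428-140777467, plus strand: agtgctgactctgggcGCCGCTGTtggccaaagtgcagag
PCDHGA12, chr5:140810091-140810130, plus strand: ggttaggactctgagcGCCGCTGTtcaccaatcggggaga
PCDHGC3, chr5:140855445-140855484, plus strand: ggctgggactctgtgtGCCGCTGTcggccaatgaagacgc

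The next sequence is a stretch of 212 bases, identical in the variable exons of PCDHB2, PCDHB10, PCDHB11 and PCDHB14 and printed from PCDHB2, that lay in RS peaks in all 4 genes. It is shown because it marks the 3′ part of the beta exons, where RS peaks gathered, and because reads from it cannot be assigned to 1 gene by sequence alone.
PCDHB2, chr5:140476010-140476221, plus strand: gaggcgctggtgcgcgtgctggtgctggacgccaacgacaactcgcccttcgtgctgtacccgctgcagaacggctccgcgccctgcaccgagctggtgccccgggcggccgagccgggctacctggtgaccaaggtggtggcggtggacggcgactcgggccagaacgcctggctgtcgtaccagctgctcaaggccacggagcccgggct

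H4K20me3 peaks were found over the variable exons of most clustered protocadherins in RS and of fewer in PRO. In RS, 43 of the 53 variable exons (81.1%) shared bases with a peak, where 3.88% of all coding genes did so in their longest coding exon. In PRO the count was 14 of 53 (26.4%), where 0.615% of all coding genes were reached. DiffBind regions reached 14 of 53 (26.4%), where the share of all coding genes was 3.92%. RS peaks covered 54.4% of the bases of all variable exons, PRO peaks 11.4% and DiffBind regions 25.1%. At least 50% of the exon was covered in 34 members in RS, 4 in PRO and 14 in DiffBind, where 3.01%, 0.451% and 3.68% of all coding genes reached that share. At least 90% was covered in 10, 1 and 12 members, where 1.61%, 0.307% and 2.74% of all did. A total of 32 members had a peak in RS alone, 11 in both states, 3 in PRO alone and 7 in neither. The 14 members with a DiffBind region all belonged to those with a peak in RS alone, and 0 of them were among the 14 with a PRO peak. The share of all coding genes in each of these combinations was not computed. These combined counts therefore do not show a trait particular to the members.

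Because members resemble each other, reads of 1 gene may be placed at another, and the counts depended on how repeated sequence was treated. When every region holding any 75-base window that occurs elsewhere in the genome was dropped, the members reached fell to 5 in PRO, 15 in RS and 1 in DiffBind. The share of all coding genes was not computed with this filter, so the unfiltered shares are not a like background for these counts. The filter removed whole peaks, since 11 of the 16 PRO peaks, 60 of the 111 RS peaks and 30 of the 48 DiffBind regions of the locus hold such a window. Exon bases outside repeated windows make up 81% of all variable exon bases. With all regions kept, 11% of these bases lay in PRO peaks, 49% in RS peaks and 23.4% in DiffBind regions, a measure chosen after seeing the data that does not tell whether a region was called from misplaced reads. The lists do not record how multiply placed reads were treated. The study's supplement reports uniquely aligned reads for each library, but its methods do not say whether peaks were called from these alone. The part of read placement in the counts was not tested.

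**Figure D1:**
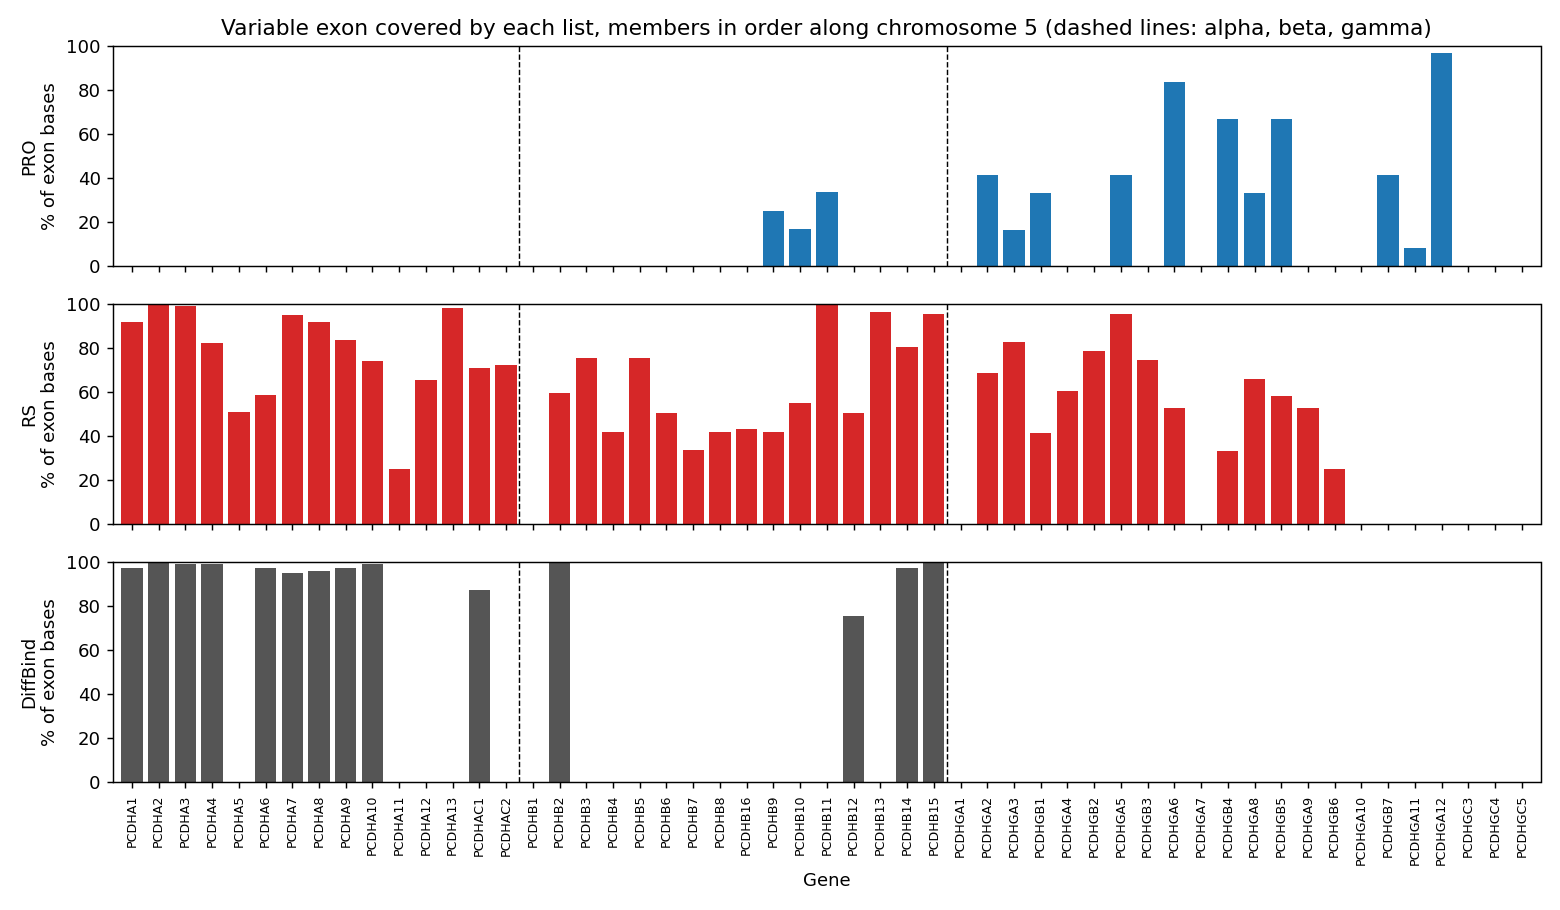
Percent of the bases of each variable exon (y axis) inside PRO peaks (top), RS peaks (middle) and DiffBind regions (bottom) for the 53 members in order along chromosome 5 (x axis), with 1 bar per gene from 1 merged list and no error. RS bars run through the alpha and beta clusters and stop after PCDHGB6, PRO bars start at PCDHB9 and end at PCDHGA12, and DiffBind bars stand in 10 alpha and 4 beta genes and in no gamma gene.

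The alpha genes had a variable exon peak in RS in all 15 cases and in PRO in 0 of 15. RS peaks covered 77.2% of alpha exon bases, with a median of 82.1% per gene and a range from 25.1% to 100%. PCDHA2 (chr5:140174550-140176937) was covered from end to end, PCDHA3 (chr5:140180783-140183176) to 99.2%, PCDHA13 (chr5:140261854-140264247) to 98.1% and PCDHA7 (chr5:140213969-140216323) to 94.8%. The lowest value in the cluster was that of PCDHA11 (chr5:140248689-140251079), where 601 bp in the 3′ part, 25.1% of the exon, lay in an RS peak. PCDHA5 (51.1%) and PCDHA6 (58.5%) were the next lowest, and PCDHA1, PCDHA4, PCDHA8, PCDHA9, PCDHA10 and PCDHA12 lay between 65.3% and 91.9%. In senescent cells 14 of the 15 alpha exons were thus marked over at least 50% of their length and 6 over at least 90%.

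DiffBind regions lay over 10 of the 15 alpha exons and covered 64.2% of the bases of all 15. With regions that hold repeated windows dropped, the alpha counts were 4 in RS and 1 in DiffBind. PCDHA5, PCDHA11, PCDHA12, PCDHA13 and PCDHAC2 had an RS peak and no DiffBind region, although RS peaks covered 98.1% of the exon of PCDHA13. Where a DiffBind region was present it covered 87.3% or more of the exon. Of the alpha exon bases in RS peaks, 72.9% were also in a DiffBind region, and 87.6% of the DiffBind bases were in an RS peak. None of the 15 alpha genes had a PRO peak anywhere between gene start and gene end.

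The alpha C-type genes lie apart from the rest, downstream of PCDHA13, and hold no repeated 75-base window. PCDHAC1 (chr5:140306478-140308910) was covered to 70.9% in RS and 87.3% in DiffBind. PCDHAC2 (chr5:140346352-140348916) was covered to 72.1% in RS and 0% in DiffBind. Both kept their RS peak when regions with repeated windows were dropped, as did PCDHA4 and PCDHA11, and PCDHAC1 was the member that kept its DiffBind region. These 4 exons thus had an RS peak with no repeated 75-base window in it.

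In the beta cluster, 15 of 16 genes had a variable exon peak in RS, 3 in PRO and 4 in DiffBind. With regions that hold repeated windows dropped, the counts were 2 in RS (PCDHB2 and PCDHB14), 0 in PRO and 0 in DiffBind. RS peaks covered 58.7% of beta exon bases, with a median of 52.8% per gene. PCDHB11 (chr5:140579348-140581738) lay entirely inside an RS peak of 4001 bp, the longest RS peak over any member. PCDHB13 (chr5:140593696-140596089) was covered to 96.3% and PCDHB15 (chr5:140625147-140627507) to 95.5%. At the other end PCDHB1 (chr5:140431056-140433509), the first gene of the cluster, was reached by 0 regions of the 3 lists, and PCDHB7 (chr5:140552417-140554795) was the lowest of those with a peak, at 33.7%. PCDHB3, PCDHB4, PCDHB5, PCDHB6, PCDHB8 and PCDHB16 had a peak in RS alone and no DiffBind region, with 41.7% to 75.5% of the exon covered.

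The PRO peaks of the beta cluster lay over 3 neighbouring genes, and each of these also had an RS peak. In PCDHB9 (chr5:140566893-140569282) the PRO peak covered 25.1% and the RS peak 41.9%, with 0 bases in common. PCDHB10 (chr5:140572126-140574525) gave 16.7% in PRO and 55.2% in RS, again with 0 bases shared, and its PRO peak lay near the 5′ end of the exon while the RS peak began 1275 bp from the start of the gene. In PCDHB11 the PRO peak covered 33.5%, and all of its 801 bases were in the RS peak. In PCDHB9 and PCDHB10 the PRO and RS lists thus placed peaks at different places in the exon. All 3 PRO peaks held repeated windows, and so did the RS peaks over these 3 genes. None of the 3 kept a peak when such regions were dropped, and the part of read placement in these positions was not tested.

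DiffBind regions in the beta cluster covered the exons of PCDHB2 (100%), PCDHB12 (75.5%), PCDHB14 (97.1%) and PCDHB15 (100%). These 4 genes had an RS peak and no PRO peak. In PCDHB2 (chr5:140474375-140476768) the RS peaks covered 59.7% of the exon, in PCDHB12 (chr5:140588480-140590864) 50.4% and in PCDHB14 (chr5:140603078-140605471) 80.4%. The DiffBind regions covered more of the exon than the RS peaks in each of them. Of the beta exon bases in RS peaks, 30.3% were also in a DiffBind region.

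The gamma cluster was the one where PRO peaks were most common. PRO peaks reached 11 of 22 variable exons and covered 23.9% of their bases, RS peaks reached 13 of 22 and covered 35.9%, and DiffBind regions reached 0 of 22. A total of 8 gamma genes had a peak in both states, 5 in RS alone, 3 in PRO alone and 6 in neither. The gamma genes thus carried peaks in both states without a called difference between them in the DiffBind list used here. Of the gamma exon bases in PRO peaks, 55.4% were also in an RS peak, and these made up 37% of the RS bases.

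PCDHGA12 (chr5:140810327-140812750) had the highest PRO value of all 53 genes, with 96.9% of its exon in 1 peak of 2401 bp and 0% in RS. PCDHGB7 (chr5:140797427-140799841) was covered to 41.4% in PRO and PCDHGA11 (chr5:140800795-140803227) to 8.26%, a single 201 bp peak, and both were at 0% in RS. These 3 are the genes with a peak in PRO alone. With regions that hold repeated windows dropped, PCDHGB7 and PCDHGA11 kept their PRO peak and PCDHGA12 did not, as 5.76% of the windows in its peak occur elsewhere.

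Among the 8 gamma genes with a peak in both states, PCDHGA6 (chr5:140753651-140756074) had 83.5% of its exon in PRO peaks and 52.6% in RS peaks. PCDHGB4 (chr5:140767452-140769848) gave 66.8% in PRO and 33.4% in RS, and PCDHGB5 (chr5:140777695-140780091) 66.8% and 58.4%. These 3 genes had the larger covered share in PRO. PCDHGA5 (chr5:140743898-140746318) gave 41.3% in PRO and 95.2% in RS, PCDHGA2 (chr5:140718539-140720962) 41.3% and 68.6%, and PCDHGA8 (chr5:140772381-140774804) 33% and 66.1%. PCDHGA3 (chr5:140723601-140726024) gave 16.5% and 82.6%, and PCDHGB1 (chr5:140729828-140732236) 33.3% and 41.6%. In these 5 the larger share was in RS. The exon bases in PRO peaks all lay in RS peaks in PCDHGA3, PCDHGB1 and PCDHGA5, and in PCDHGA6, PCDHGB4 and PCDHGB5 all RS-marked bases were inside PRO peaks.

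The 5 gamma genes with a peak in RS alone were PCDHGA4 (60.3%), PCDHGB2 (78.5%), PCDHGB3 (74.6%), PCDHGA9 (52.9%) and PCDHGB6 (24.9%). The 6 with none were PCDHGA1, PCDHGA7, PCDHGA10 and the C-type genes PCDHGC3 (chr5:140855684-140858113), PCDHGC4 (chr5:140864741-140867182) and PCDHGC5 (chr5:140868808-140871267), all at 0% in the 3 lists. The C-type genes of the 2 clusters thus differed in these lists, with both alpha C-type exons in RS peaks and 0 of the 3 gamma C-type exons in any region. With regions that hold repeated windows dropped, 5 of 22 gamma genes had a PRO peak and 9 of 22 an RS peak.

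The pattern along the chromosome had sharp ends. Between the last RS base over PCDHGB6, at position 140789801, and the next RS base at 140925601 there was no RS peak for 136 kb, a stretch that holds PCDHGA10, PCDHGB7, PCDHGA11, PCDHGA12 and the gamma C-type genes together with 3 PRO peaks and 0 DiffBind regions. A similar stretch without RS peaks ran for 126 kb from the exon of PCDHAC2 to the start of PCDHB2 and holds the constant exons of the alpha cluster and PCDHB1. The constant exons, 828 bp in both clusters together, were covered by none of the 3 lists.

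Within the 850 kb the peaks followed the variable exons, most closely in PRO. Of 16 PRO peaks, 15 lay over a variable exon (93.8%), against 56 of 111 RS peaks (50.5%) and 14 of 48 DiffBind regions (29.2%). Variable exons make up 15% of the span and held 90% of PRO bases, 46.7% of RS bases and 30.1% of DiffBind bases. Between the variable exons, from PCDHA1 to PCDHAC2, RS peaks covered 4.91% of the remaining sequence, where they covered 77.2% of the exons. The median length of the regions in the span was 1001 bp in PRO, 1001 bp in RS and 2301 bp in DiffBind, and over each whole list it was 601, 801 and 1601 bp.

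RS peaks that lay outside variable exons were concentrated in flanking segments. The 65.7 kb before PCDHA1 were covered to 35.9% in RS, 39% in DiffBind and 0% in PRO. The 81.1 kb between PCDHB15 and PCDHGA1 were covered to 38.6% in RS, 36.8% in DiffBind and 1.23% in PRO. That segment holds TAF7, which encodes a subunit of the transcription factor TFIID, and SLC25A2, a mitochondrial ornithine carrier, whose gene body was covered to 85.9% in RS. Family pseudogenes in the beta cluster were marked as well, with PCDHB18P at 96.2% and PCDHB19P at 97.5% in RS, whereas PCDHGB8P and PCDHGB9P in the gamma cluster were at 0%.

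**Figure D2:**
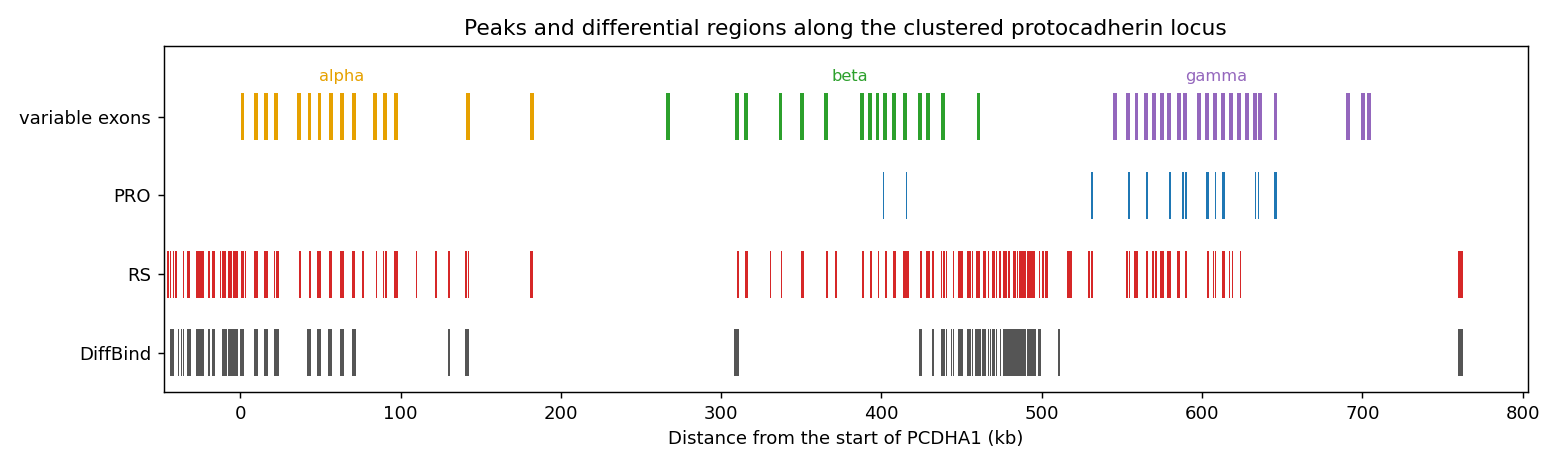
Positions of the 53 variable exons (top row, coloured by cluster) and of the 16 PRO peaks, 111 RS peaks and 48 DiffBind regions along the locus, in kb from the start of PCDHA1 (x axis). RS peaks and DiffBind regions crowd before the alpha cluster and between the beta and gamma clusters, and of the stretches without RS peaks the 126 kb one follows the last alpha exon and the 136 kb one starts at PCDHGB6.

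The mark covered more of the variable exons than of the sequence upstream of the start. Within 2000 bp of the start in either direction, 43 members had an RS peak (4.4% of all coding genes), 14 a PRO peak (2.01% of all) and 14 a DiffBind region (3.5% of all). This window takes in most of the variable exon. In the 1000 bp upstream of the start alone, 7 of 53 members had an RS peak, 1 a PRO peak and 6 a DiffBind region. Of all coding genes 2.7%, 1.29% and 2.14% did, so for RS and DiffBind the members were reached more often. In each of these members a region that reached upstream also lay over the variable exon. The upstream counts are therefore not separate from the exon counts. In PCDHA7 the start used is also the first base of the variable exon. The covered share of the upstream 1000 bp in the members was 2.52%, 0.108% and 3.18%. PCDHB15 stood highest, with 60.1% of the upstream 1000 bp in RS peaks and 100% in a DiffBind region. For whole genes, 45 members had an RS peak, 22 a PRO peak and 19 a DiffBind region, where 21%, 3.97% and 18.3% of all coding genes did, and these counts repeat regions because alpha gene bodies overlap each other, as do gamma bodies.

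The promoter letters printed above were found in the 250 bp before to 50 bp after the start, on either strand. ATGTCGCTG was present in 7 of 15 alpha genes and in 0.114% of the same windows over all coding genes, GTGGCGCTG in 13 of 16 beta genes and 0.838% of all, and GCCGCTGT in 12 of 22 gamma genes and 2.05% of all. These letter strings were picked because they recur in the members, so their counts in members describe the choice. The shared core CGCTG, which the 3 strings contain, was present in 10, 13 and 21 members of the clusters and in 59.3% of all windows. Of the 32 members with their cluster's string, the letters were inside an RS peak in 3 (PCDHB11, PCDHB13 and PCDHB15), inside a DiffBind region in 3 (PCDHA8, PCDHB2 and PCDHB15) and inside a PRO peak in 0. In PCDHA2 the RS peak began 15 bases past the last of the letters, and in PCDHGA12 the PRO peak began 287 bases past it. The following windows of 300 bases, from 250 before the start, are printed for PCDHGA12, the gene with the widest PRO coverage and an upstream side free of PRO peaks, and PCDHB15, whose upstream side was the most marked, with the letters in capitals.
PCDHGA12, chr5:140809824-140810123, plus strand: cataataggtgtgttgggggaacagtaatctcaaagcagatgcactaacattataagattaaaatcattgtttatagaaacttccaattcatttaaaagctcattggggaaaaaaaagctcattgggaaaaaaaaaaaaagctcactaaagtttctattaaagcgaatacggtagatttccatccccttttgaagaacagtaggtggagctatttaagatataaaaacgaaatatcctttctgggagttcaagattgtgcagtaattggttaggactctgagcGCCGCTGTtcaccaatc
PCDHB15, chr5:140624713-140625012, plus strand: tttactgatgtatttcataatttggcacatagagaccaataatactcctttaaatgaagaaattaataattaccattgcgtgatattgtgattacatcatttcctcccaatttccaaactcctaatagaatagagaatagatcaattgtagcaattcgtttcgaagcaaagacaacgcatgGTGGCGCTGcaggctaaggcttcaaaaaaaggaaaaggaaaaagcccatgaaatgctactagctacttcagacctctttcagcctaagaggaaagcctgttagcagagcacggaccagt

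Along the variable exon the RS mark was not even. Each exon was divided into 10 equal bins from 5′ to 3′ and coverage was averaged over the genes of a cluster. In the beta cluster, RS peaks covered 30.9% of bin 1, 39.5% of bin 5 and 93.8% of bins 7, 8 and 9, before 61.1% in bin 10. In the alpha cluster the average rose from 61% in bin 4 to 93.3% in bins 6 and 7 and was 50.5% in bin 10. In the gamma cluster the RS average was 14.2% in bin 5 and 56.1% in bin 8, and the PRO average was 9.34% in bin 3 and 40.9% in bins 7 and 8. The highest averages thus lay in the 3′ part of the exon, before its end, for RS in the 3 clusters and for PRO in the gamma cluster. DiffBind regions covered 66.7% in bins 2 to 8 of the alpha cluster and 47.4% in bin 10, and 25% in bins 4 to 9 of the beta cluster and 21.5% in bin 10.

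Base composition and repeated sequence also changed along the exon, and their part in the pattern was not tested. In the beta cluster 57.5% of the 75-base windows that start in bin 8 occur elsewhere in the genome, against 1.3% in bin 5, and GC content was 69.8% against 45.8%. In the gamma cluster the share of repeated windows was 20.1% in bin 8 and 0% in bins 3 to 6. In the alpha cluster it was 0% in bins 8 to 10, where RS peaks covered 89.7%, 84% and 50.5%. Of the 15 alpha exons, 4 had an RS peak free of repeated windows over its whole length. GC content of the alpha exons was 65.4% in bin 8 and 40.3% in bin 4, the bin with the lowest RS coverage apart from bin 10.

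**Figure D3:**
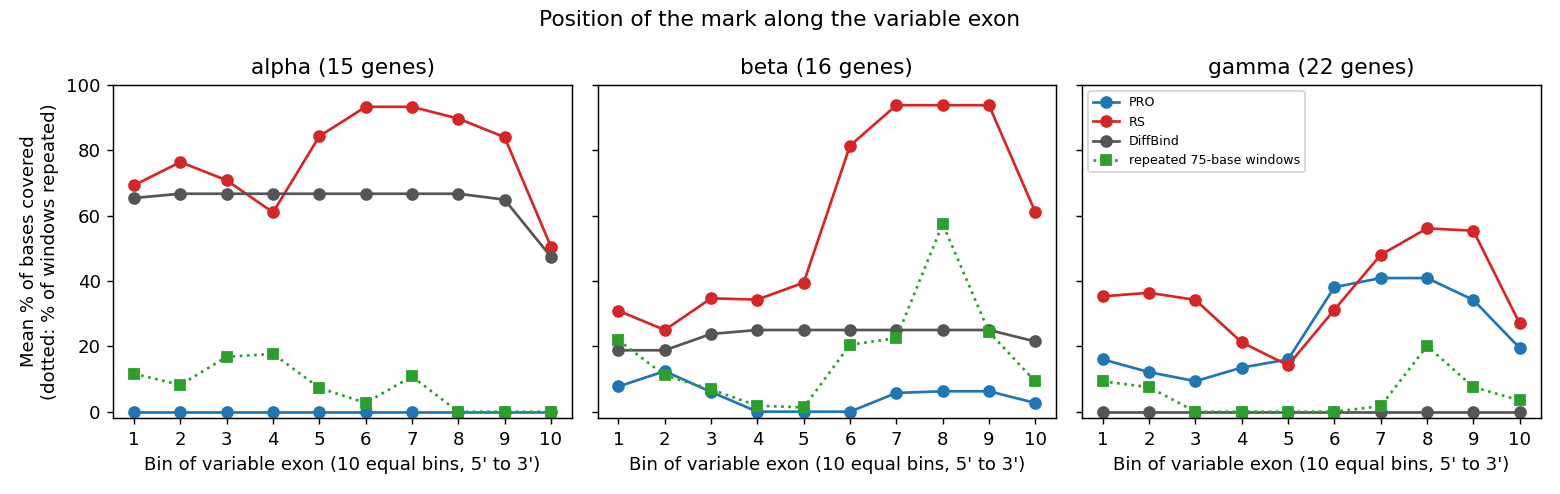
Mean percent of bases covered (y axis) in each of 10 equal bins of the variable exon from 5′ to 3′ (x axis) by PRO peaks, RS peaks and DiffBind regions, averaged over the genes of each cluster, with the percent of 75-base windows starting there that occur elsewhere in the genome as a dotted line. RS coverage reached 93.3% in alpha, 93.8% in beta and 56.1% in gamma exons, each between bins 6 and 9.

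Stretches identical letter for letter in pairs of members were marked alike in some pairs and not in others. The longest, 592 bp in PCDHA7 and PCDHA9, lay wholly in RS peaks and DiffBind regions in both genes. The next, 453 bp at the 5′ end of PCDHB8 and PCDHB13, was wholly inside an RS peak in PCDHB13 and had 0 bases in a peak in PCDHB8. A stretch of 327 bp shared by PCDHB9 and PCDHB10 had 279 and 312 bases in their PRO peaks and 0 in RS peaks in both. A stretch of 314 bp shared by PCDHGB1 and PCDHGB2 lay wholly in RS peaks in both and in a PRO peak in PCDHGB1 alone. The printed stretch of 212 bp lay wholly in RS peaks in its 4 genes, in a PRO peak in PCDHB11 and in DiffBind regions in PCDHB2 and PCDHB14. Identity of sequence was thus compatible with like and with different calls at the copies.

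The members without a peak in either state had the lowest median CpG content of the 4 patterns. The median ratio of observed to expected CpG in the variable exon was 0.566 in the 7 genes with no peak, 0.746 in the 32 with a peak in RS alone, 0.702 in the 11 with both and 0.748 in the 3 with PRO alone. By cluster the median was 0.896 in alpha, 0.688 in beta and 0.701 in gamma genes. Ranges overlapped, since PCDHAC2 at 0.488 and PCDHGA9 at 0.466 had RS peaks and PCDHGC3 at 0.719 had none. The median identity to the closest member was 60.5% in the genes with no peak, 81.1% in those with a peak in RS alone, 81.6% in those with both and 77.5% in those with PRO alone. The low median comes from PCDHB1 and the 3 gamma C-type genes, at 57.9% to 60.5%, as PCDHGA1, PCDHGA7 and PCDHGA10 lay at 77.5% to 78.5%. PCDHAC1 (56.3%) and PCDHAC2 (58.3%) were as far from other members and had RS peaks.

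Compared with other genes with large coding exons, the clustered protocadherins were reached more often in PRO and RS. A set of 679 other coding genes had a longest coding exon of at least 2000 bp. Of these, 1.18% had a PRO peak there, 13.5% an RS peak and 12.5% a DiffBind region. Only clustered protocadherins were left out of this set. Zinc finger genes made up 38 of its 92 genes with an RS peak, 31 of 85 with a DiffBind region and 2 of 8 with a PRO peak. The 566 zinc finger genes, a family known for heterochromatin marks over its exons, gave 3.53%, 46.6% and 38.9%, and the 415 olfactory receptor genes, another clustered family with a single coding exon, 0.241%, 9.16% and 4.1%. The protocadherin shares of 26.4%, 81.1% and 26.4% were above all of these in PRO and RS and below the zinc finger genes in DiffBind. Exon length differs between the families, with medians of 2397 bp in protocadherins and 1388 bp in zinc finger genes, so any-overlap counts are not on equal terms. By covered bases the RS values were 54.4% and 36.7%, and the DiffBind values 25.1% and 35.9%. All these shares keep regions with repeated windows. Dropping such regions lowered the protocadherin counts and was not done for the other families, so the ranking without them is not known. Of all 732 coding genes with an exon this large, 22 had a PRO peak in it and 14 of those were clustered protocadherins. No test of these differences was made.

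**Figure D4:**
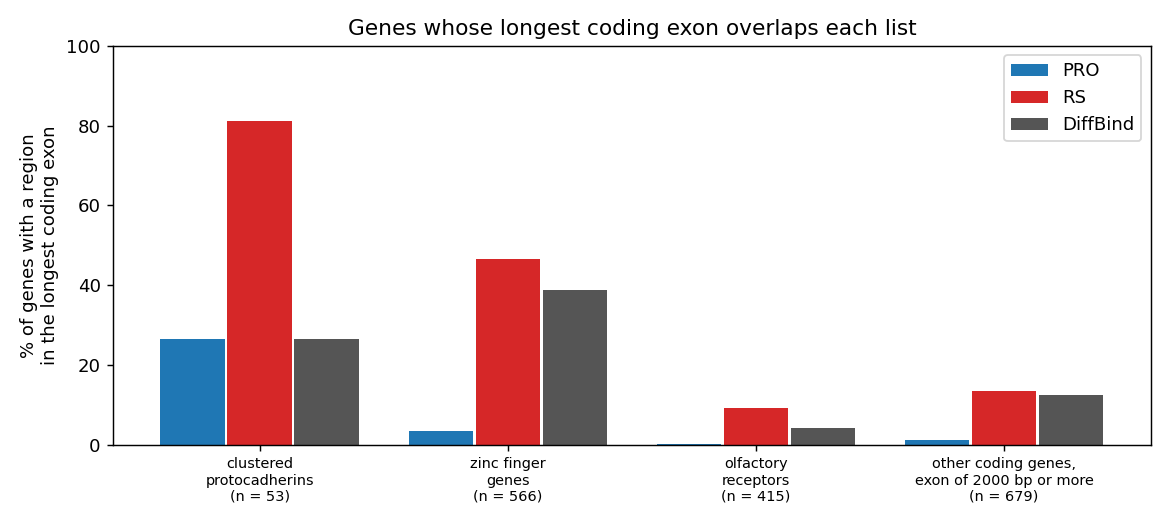
Percent of genes whose longest coding exon shares at least 1 base with a PRO peak, an RS peak or a DiffBind region (y axis), in clustered protocadherins, zinc finger genes, olfactory receptor genes and other coding genes with an exon of at least 2000 bp (x axis), from 1 list per state with no error. Clustered protocadherins stood at 26.4%, 81.1% and 26.4%, and zinc finger genes at 3.53%, 46.6% and 38.9%. The last group includes zinc finger genes with such an exon.

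Relatives and regulators of the family were taken from fixed lists. Non-clustered protocadherins are single genes at other places that encode similar adhesion proteins. Of 12 of them, 0 had a PRO peak in the longest coding exon, 3 an RS peak and 4 a DiffBind region. The shares of all coding genes were 0.615%, 3.88% and 3.92%. All of these relatives except PCDH15 have a longest coding exon of at least 2000 bp. In the 679 other coding genes with such an exon, a set that includes those relatives, the shares were 1.18%, 13.5% and 12.5%. RS peaks covered 98.3% of this exon in PCDH17, 83.9% in PCDH19 and 63.2% in PCDH8, and DiffBind regions 98.3% in PCDH17, 92.9% in PCDH19, 82% in PCDH1 and 76.1% in PCDH10. PCDH1 and PCDH12, on the same chromosome arm as the clusters, had no RS peak in this exon. Of 12 known regulators of the clusters, among them CTCF, the cohesin genes RAD21, SMC1A and SMC3, and the silencing factors SETDB1, TRIM28 and SMCHD1, 0 had a region in the longest coding exon or in the promoter, and 4 had an RS peak in the gene body, namely SETDB1, STAG1, ATF7IP and STAG2. Over all coding genes RS peaks reached 3.88% of longest coding exons, 4.4% of promoters and 21% of gene bodies. For so few genes the regulator counts are near the background. The genes of 3 H4K20 methyltransferases, KMT5A, KMT5B and KMT5C, were reached by 0 regions.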

How the data were processed

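H4K20me3 ChIP-seq was carried out on PRO and RS IMR90 cells, 4 samples in 2 groups of 2, with 1 sample per antibody. According to the study's methods and the submitters' processing notes, the authors trimmed reads with Trim Galore, aligned them to hg19 with Bowtie2, called domains with SICER (windows and gaps of 200 bp, histone H4 ChIP as control) and intersected both antibodies. The deposited lists hold start and end positions in bases, with no other value such as a score, count or direction. The DiffBind list was made by the authors at a false discovery rate of 0.01 with the antibodies as replicates. The study describes a longer list than the one used here. The library depth is not given in the lists, so no interval was computed. The study's supplement reports read counts, and the libraries were unequal. In each state 1 H4K20me3 library had a much larger share of duplicate reads, and the other aligned a much smaller share of its reads. The part of these differences in the counts was not tested.

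The gene annotation was GENCODE release 44 on GRCh37. The canonical transcript was used, or else the longest coding one (PCDHA6 and PCDHA7), and coding pieces up to 10 bases apart were joined (PCDHB9 and PCDHB16). Coordinates are 1-based. Repeated windows were exact matches of 75 bases on either strand of the 84 assembly sequences. Overlap was counted with Python 3.11.15, numpy 2.4.6 and pysam 0.24.0, and the counting was tested on simulated regions. No test between groups was possible. The members and lists were chosen with earlier results of these data known. Genes were named by rule: the 8 members with the largest RS share, those with a PRO peak, cluster extremes and C-type genes. Members with differing RS and DiffBind calls were to be named only if they were few. They were not few, so those named on this ground were chosen after their values were seen. Of the planned list of regulators, 1 gene is not reported here. Others named for their pattern were chosen after their values were seen. The alternatives covered overlap, region length, region ends, merging, repeated sequence, transcript and promoter width.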

Additional observations from a re-analysis of the deposited data

How the results depend on the processing

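The lists hold 1 set of positions per state, and this limits all values: they hold no depth, signal or spread between antibodies, presence in a list depends on the calling threshold, and a peak missing from a list does not show that the mark was absent. No paired analysis was possible because the lists carry no values per sample, and leaving out each antibody could not be run for the same reason. A total of 24 values were recomputed under 12 other settings, 9 planned and 3 chosen after seeing the data, which gave 213 recomputed values, and 179 of them stayed within 1.5 times the reported value. Dropping 1-base peaks, lowering ends by 1 base, merging peaks within 1000 bp, taking all coding transcripts, leaving coding pieces apart, taking whole exons with untranslated bases and counting exon bases outside repeated windows moved 0 values. The last of these can hardly lower a count that needs 1 shared base, so its counts say nothing of stability.

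Dropping regions with a repeated 75-base window moved 16 values. This filter was not run over all coding genes, so its counts have no background share. Variable exon counts became 5 for PRO (5 gamma, 0 beta), 15 for RS (4 alpha, 2 beta) and 1 for DiffBind regions (1 alpha, 0 beta). The covered share of exon bases became 2.629% for PRO, 13.76% for RS and 1.665% for DiffBind regions, the share of DiffBind bases of the locus in variable exons became 7.32%, and promoter counts became 5, 17 and 2. Requiring at least 50% of the feature to be covered left 4 exons in PRO (4 gamma, 0 beta), promoter counts of 0 for PRO, 7 for RS and 7 for DiffBind regions, and gene body counts of 0, 6 and 3. Peaks of at least 1000 bp gave 7 exons in PRO (7 gamma, 0 beta) and 8 promoters in PRO. With promoters of 1000 bp on either side the counts were 8 in PRO and 28 in RS, and with 250 bp upstream to 50 bp downstream they were 1 for PRO, 11 for RS and 8 for DiffBind regions. A smaller window or a stricter overlap can only lower these counts by construction.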
